A study of Mus musculus with 10 samples.

Results

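Major urinary proteins are encoded by the Mup genes of mouse chromosome 4, and 5 rows of the expression table, Mup3, Mup7, Mup14, Mup20 and Mup21, were followed by name across every library. They were chosen by symbol from a list of names, and were 5 of the 20 Mup rows and 5 of the 24062 genes in the table. Major urinary proteins are small barrel-shaped carriers of the lipocalin family. In mice they are made mainly by hepatocytes, secreted into the blood, filtered into the urine and deposited in scent marks, where they hold and slowly release volatile pheromones. Their liver expression is higher in males than in females and follows the pulsatile male pattern of growth hormone acting through the transcription factor STAT5B, with further input from androgen, thyroid and glucocorticoid hormones. Mup20 encodes darcin, the urinary protein that attracts females to male scent. Because the gene copies are so alike, their summed level is given beside each gene.

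The study measured mRNA in mouse liver under a normal diet or a Western diet, combined with carbon tetrachloride (CCl4, a solvent that injures hepatocytes when the liver metabolises it) or with its oil vehicle. There were 8 liver libraries, each a pool of 4 mice: normal diet with oil, normal diet with CCl4, Western diet with oil, and Western diet with CCl4, each at 12 and at 24 weeks. Another 2 libraries were liver tumours of single mice that had received Western diet and CCl4 for 24 weeks. Strain, sex and age of the mice are not given in the labels used here, and the dose of CCl4 is not given either. The 2 durations of a liver group stood in for repeats. For comparisons of liver pools, p-values therefore measure the spread between pools of different duration after a common shift for duration, not the spread between animals. In the tumour comparisons that spread is merged with the difference between the 2 tumours, which are single mice of the same duration. Recovered reads ran from 23206229 to 30137802 per library, and the 5 rows held between 27810 reads, in tumour 1, and 379026 reads, in the 24-week normal-diet oil pool. The hepatocyte markers Alb, Apob, Cps1, Hnf4a and Tat were above 0 in all 10 libraries.

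All 5 genes lie on the minus strand of the Mup cluster, which spans chr4:59956804-62150863 in GRCm38 (2194060 bases) and holds 22 protein-coding Mup genes and 26 Mup pseudogenes in the GENCODE annotation. Mup7 (ENSMUSG00000073842, chr4:60066469-60070475) and Mup14 (ENSMUSG00000073830, chr4:61300023-61304000) lie nearer its lower end and within the array, in that order. Mup20 (ENSMUSG00000078672, chr4:62050234-62054158), Mup3 (ENSMUSG00000066154, chr4:62083476-62087342) and Mup21 (ENSMUSG00000066153, chr4:62147932-62150863) sit together at its upper end. All 5 are annotated as protein-coding. The start of each coding sequence (60 bases from the ATG, in exon sequence of GRCm38) shows how far apart the copies are, with bases that differ from Mup7 in the alignment in capitals. The windows are chr4:60070241-60070300 for Mup7, chr4:61303830-61303889 for Mup14, chr4:62053990-62054049 for Mup20, chr4:62150693-62150752 for Mup21 and chr4:62087172-62087231 for Mup3, all on the minus strand.
Mup7: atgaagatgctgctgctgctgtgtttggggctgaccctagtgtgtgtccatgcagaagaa
Mup14: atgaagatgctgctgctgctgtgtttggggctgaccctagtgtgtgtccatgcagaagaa
Mup20: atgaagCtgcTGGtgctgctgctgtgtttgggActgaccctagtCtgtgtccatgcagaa
Mup21: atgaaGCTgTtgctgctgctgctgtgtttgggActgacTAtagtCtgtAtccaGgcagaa
Mup3: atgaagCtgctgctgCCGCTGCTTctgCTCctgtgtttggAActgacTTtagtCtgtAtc
Mup7 and Mup14 were identical over these 60 bases, whereas 6 bases of Mup20, 10 of Mup21 and 19 of Mup3 were unmatched.

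Over the whole coding sequence Mup7 and Mup14 were 99.1% identical, and each was closer still to another row of the table, Mup7 to Mup12 (99.3%) and Mup14 to Mup8 (99.4%). Mup3 and Mup21 were 94.7% identical to each other. Mup20 was at most 91.5% identical to any other row (Mup5). This decides how far a read can be assigned. Of all 50-base stretches of the annotated transcripts, 86.7% in Mup3, 80.7% in Mup21 and 49.9% in Mup20 occurred in no other Mup transcript, but only 16.0% in Mup14 and 13.3% in Mup7. How the authors' counter treated reads that match several copies is not given in the sources used here, so the values of Mup7 and Mup14 are uncertain as to the copy, and those of Mup3 and Mup21 much less so.

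**Figure D1:**
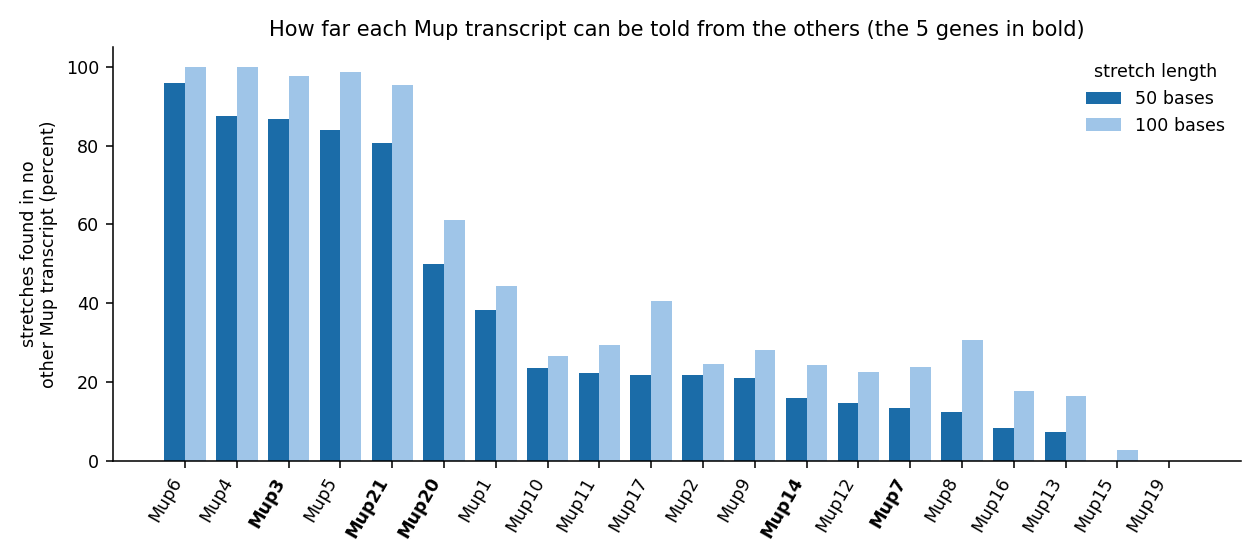
Percent of 50-base (dark) and 100-base (light) stretches of each annotated Mup transcript that occur in no other Mup transcript, for the 20 rows of the table in falling order. Mup3 and Mup21 stand at 86.7% and 80.7% for 50 bases and Mup14 and Mup7 at 16.0% and 13.3%.

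Upstream sequence also split the genes into the same sets. RefSeq promoter windows on GRCm38.p6, 250 bases before to 50 after the listed start, were found for 4 of the 5 genes, and are printed because they show how closely the copies share what lies upstream. Mup7 and Mup14, whose values were the most alike of any pair (described further on), also share most of this window, and so do Mup3 and Mup21, whose values were less alike. Capitals mark the matches to TATATAA (a core promoter box), TGTTCT (the core of a steroid-receptor element) and, for Mup7 and Mup14, the reverse complement of CCAAT. The windows are chr4:60070426-60070725 for Mup7, chr4:61303949-61304248 for Mup14, chr4:62150792-62151091 for Mup21 and chr4:62087268-62087567 for Mup3, each on the minus strand.
Mup7: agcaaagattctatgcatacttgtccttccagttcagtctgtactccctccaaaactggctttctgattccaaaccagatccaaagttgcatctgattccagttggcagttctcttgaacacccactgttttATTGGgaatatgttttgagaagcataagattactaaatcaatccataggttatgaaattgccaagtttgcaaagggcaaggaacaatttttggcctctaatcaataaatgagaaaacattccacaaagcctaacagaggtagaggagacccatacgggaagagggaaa
Mup14: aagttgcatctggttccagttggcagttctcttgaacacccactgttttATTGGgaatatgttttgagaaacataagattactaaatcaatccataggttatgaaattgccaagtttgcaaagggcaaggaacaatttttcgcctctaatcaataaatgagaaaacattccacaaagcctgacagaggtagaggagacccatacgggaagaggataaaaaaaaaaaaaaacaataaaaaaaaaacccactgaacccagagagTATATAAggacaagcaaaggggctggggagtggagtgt
Mup21: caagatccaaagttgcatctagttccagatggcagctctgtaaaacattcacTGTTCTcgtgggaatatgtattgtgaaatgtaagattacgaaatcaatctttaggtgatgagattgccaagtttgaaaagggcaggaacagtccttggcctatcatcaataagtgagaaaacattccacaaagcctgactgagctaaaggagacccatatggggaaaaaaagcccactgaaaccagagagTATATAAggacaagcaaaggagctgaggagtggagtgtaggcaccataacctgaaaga
Mup3: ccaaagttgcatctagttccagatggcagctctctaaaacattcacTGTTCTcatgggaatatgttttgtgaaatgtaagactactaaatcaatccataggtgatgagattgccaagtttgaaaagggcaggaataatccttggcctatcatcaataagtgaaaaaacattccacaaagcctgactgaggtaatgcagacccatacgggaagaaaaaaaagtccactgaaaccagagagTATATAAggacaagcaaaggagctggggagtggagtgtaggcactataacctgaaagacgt
The windows of Mup14 and Mup7 were 98.1% identical over 213 aligned bases, and those of Mup21 and Mup3 were 93.3% identical over 297. The listed starts are not at the same place in the aligned sequence, and the Mup7 window begins furthest upstream. Both strands were searched. TATATAA began 11 bases before the listed start in Mup3 (position -11), at -8 in Mup21 and 12 bases after it in Mup14, and was not within the Mup7 window. It occurred in 3.46% of 27025 promoter windows of the same length. TGTTCT was at -204 in Mup3 and -198 in Mup21, against 19.0% of all windows. CCAAT was on the minus strand at -118 in Mup7 and -201 in Mup14, against 37.9% of all windows. TTCNNNGAA, the STAT5 consensus, was in none of the 4 windows and in 8.47% of all windows. These are descriptions of letters in a window and do not overlap one another.

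In liver of mice on normal diet with oil the Mup genes were among the abundant transcripts. The summed normalised read count of the 5 rows was 15716 at 12 weeks and 17339 at 24 weeks, or 1.42% (95% exact Clopper-Pearson interval 1.41 to 1.42%) and 1.57% (1.57 to 1.58%) of all reads of the library. Per kilobase of exon, which allows levels to be compared between genes, Mup3 stood highest at 9042 and 8717, followed by Mup20 at 3589 and 4892 and Mup7 at 1899 and 2162. Mup14 (320 and 692) and Mup21 (480 and 444) were the lowest, and their order differed between the pools. The other 15 Mup rows together amounted to 1.86% and 3.15% of the 5-gene sum in these pools.

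Every exposed group had a lower summed value. The summed value was 6539 and 3038 (12 and 24 weeks) with CCl4 on normal diet, 8815 and 6724 with Western diet and oil, 6337 and 3375 with Western diet and CCl4, and 1087 and 3422 in tumours 1 and 2. Both oil pools on normal diet therefore lay above all 8 other libraries. The other groups overlapped one another in part: the Western diet oil pools lay above both groups given CCl4, those 2 groups covered nearly the same range, and tumour 2 was close to their pools of 24 weeks. The spread between the pools of a group was 0.53 on the log2 scale (pooled SD). As shares of all reads, the sum was 0.675% and 0.340% with CCl4 on normal diet, 0.817% and 0.668% with Western diet and oil, 0.646% and 0.398% with both, and 0.120% and 0.297% in the tumours. In tissue, fewer hepatocytes and less Mup mRNA per hepatocyte cannot be told apart.

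**Figure D2:**
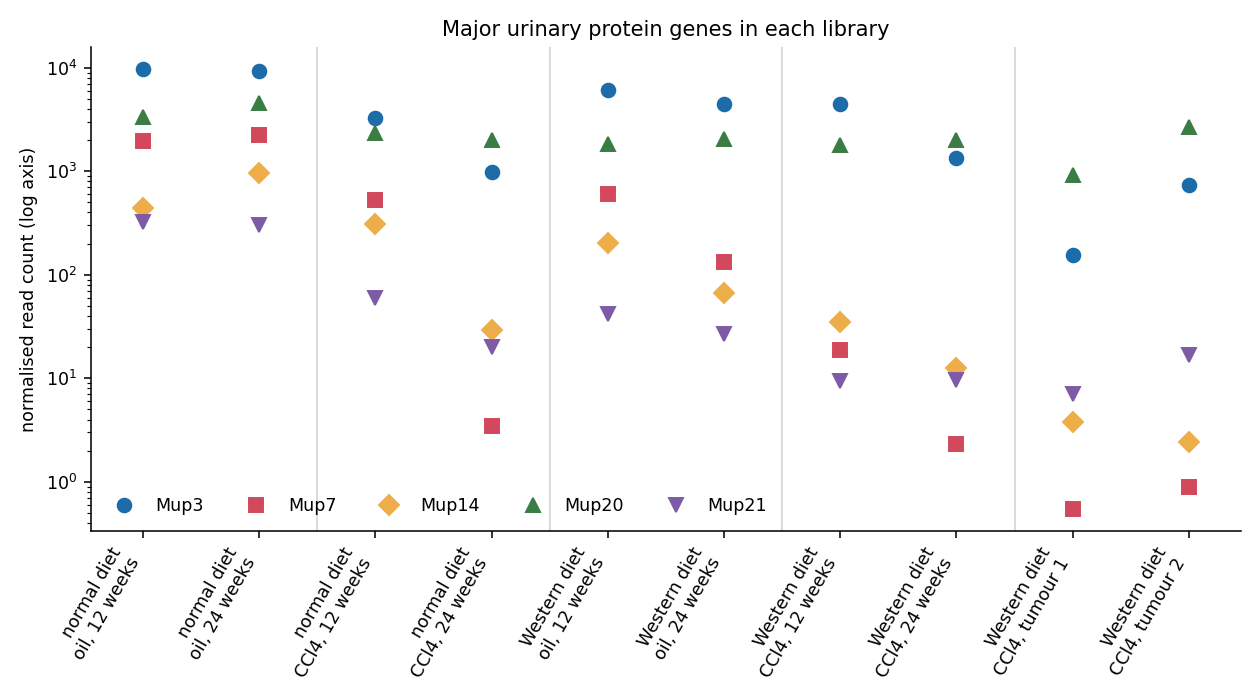
Normalised read count of the 5 genes (log axis) in each of the 10 libraries, 1 point per gene and library, with lines between groups. Mup20 stays between 921 and 4540, while Mup7 runs from 2233 in the 24-week normal-diet oil pool to 0.547 in tumour 1.

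Mup20 made up most of the summed value in the 24-week CCl4 pools and in the tumours, and Mup3 in the other 6 libraries. With oil on normal diet Mup3 made up 61.4% and 53.7% of the summed value and Mup20 21.2% and 26.2%. With CCl4 for 24 weeks Mup20 held the larger share on either diet, 65.7% on normal diet and 59.1% on Western diet, against 32.6% and 40.1% for Mup3. At 12 weeks of CCl4 Mup3 led, with 50.3% on normal diet and 70.7% on Western diet. With Western diet and oil Mup3 held 69.6% and 65.9%. These 2 values and the 70.7% lay above both oil pools on normal diet. In the tumours Mup20 reached 84.7% and 78.1%. The share of Mup20 in the 24-week CCl4 pools and in the tumours was thus above that in the other 6 libraries, where it ran from 20.7% to 35.9%. These shares compare rows within a library, so they do not depend on the scaling between libraries, and they were not tested. They do depend on how reads that match several copies were assigned.

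**Figure D3:**
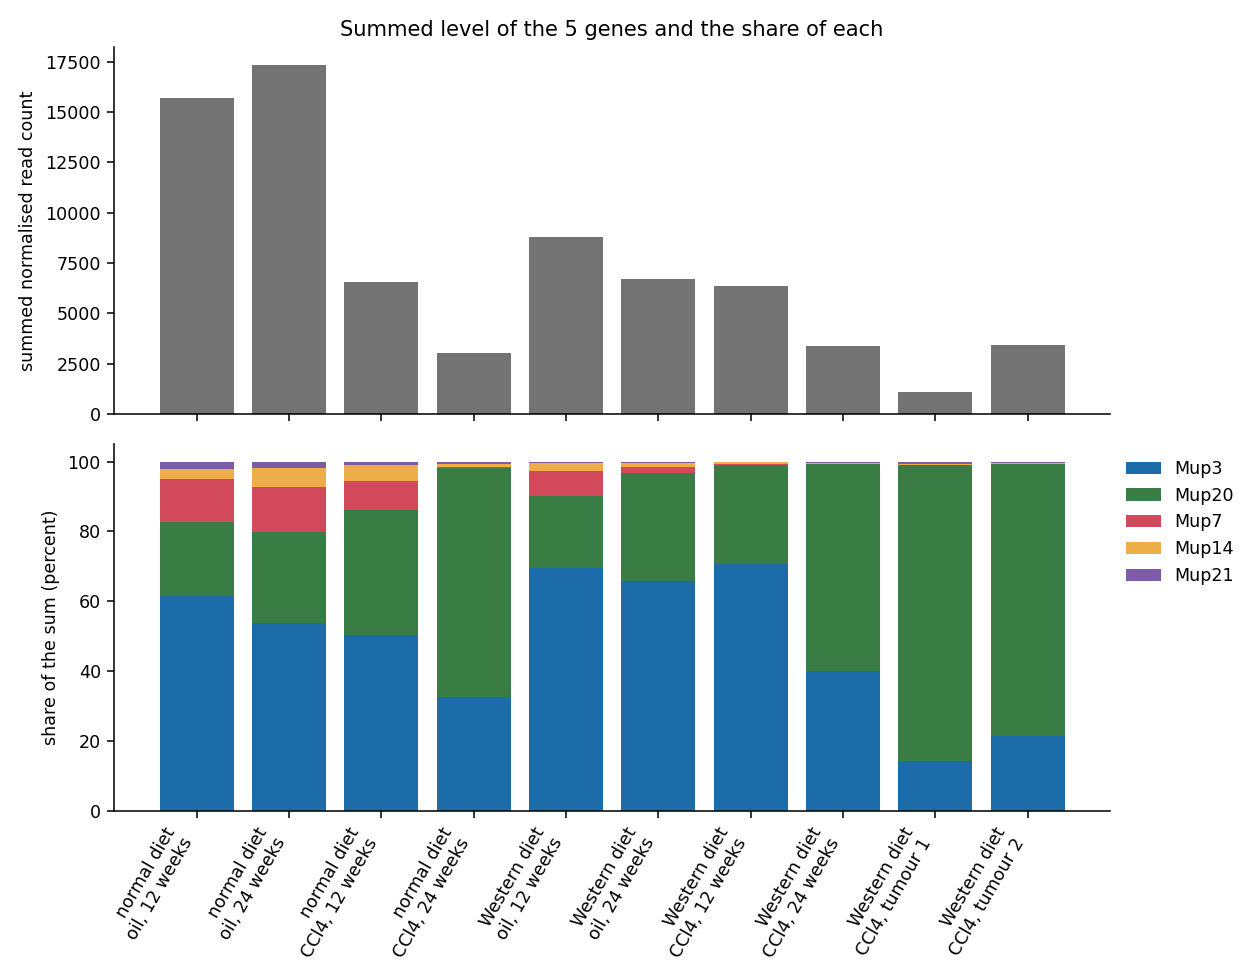
Top, summed normalised read count of the 5 genes in each library, from 17339 in the 24-week normal-diet oil pool to 1087 in tumour 1. Bottom, share of each gene in that sum in percent, with Mup20 at 65.7% and 59.1% in the 24-week CCl4 pools and 84.7% and 78.1% in the tumours.

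CCl4 on normal diet lowered all 5 genes. Mean levels were 7.85-fold lower for Mup7, 7.84-fold for Mup21, 4.43-fold for Mup3 and 4.16-fold for Mup14, and Mup20, the darcin gene, had the smallest change at 1.81-fold. Of 12648 tested genes, 26% passed the threshold in this comparison (limma, Benjamini-Hochberg adjusted p under 0.05, either direction), against 5 of the 5 Mup genes, all lower. For all 5 both CCl4 pools lay below both oil pools, as they did for 31.8% of tested genes. Their median log2 change was -2.75, beside 0.00 over all tested genes. Changes were measured on log2(value + 1), which understates the change of low values.

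Mup21 stood at 325 and 301 with oil (12 and 24 weeks) and at 59.6 and 20.2 with CCl4. Both CCl4 pools were below both oil pools, with a log2 change of -3.13 ± 0.31 (SE, 2 pools per group, limma adjusted p = 0.00045). Within a duration the difference was -2.43 at 12 weeks and -3.83 at 24 weeks. Mup3, the most abundant member, went from 9656 and 9309 to 3291 and 989, a log2 change of -2.39 ± 0.40 (limma adjusted p = 0.00417). Mup7 went from 1962 and 2233 to 531 and 3.44. Its pools do not overlap either, but the 2 CCl4 pools are far apart, and the log2 change of -5.43 ± 1.22 (limma adjusted p = 0.0139) is made of -1.88 at 12 weeks and -8.97 at 24 weeks. Mup14 had 443 and 956 with oil against 307 and 29.6 with CCl4, and its change of -2.75 ± 0.76 (limma adjusted p = 0.0304) likewise came mostly from 24 weeks. Mup20 had 3330 and 4540 against 2350 and 1995, a log2 change of -0.84 ± 0.20 (limma adjusted p = 0.0164). Without the oil pool of 24 weeks only Mup21 passed the threshold, and without the CCl4 pool of 24 weeks only Mup21 and Mup7 did, each of the fits then holding a lone pool that is assumed to vary like the others.

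Western diet without CCl4 lowered Mup21 and Mup20. In this comparison 1.99% of tested genes passed the threshold, against 2 of 5 Mup genes, both lower. For all 5 genes both Western diet pools lay below both normal-diet pools, as they did for 24.2% of tested genes. The median log2 change of the 5 genes was -2.46, and 0.02 over all tested genes.

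Mup21 had 41.4 and 26.8 on Western diet with oil, 9.18-fold below normal diet in mean level, with a log2 change of -3.19 ± 0.31 (limma adjusted p = 0.00275). Mup20 had 1822 and 2065, 2.02-fold below normal diet, with a log2 change of -1.0 ± 0.20 (limma adjusted p = 0.0428). Mup7 (609 and 134) and Mup14 (205 and 66.8) had estimates of -2.87 ± 1.22 and -2.46 ± 0.76 that did not pass (limma adjusted p = 0.270 and 0.152). Mup3 (6138 and 4432) had the smallest estimate, -0.86 ± 0.40 (limma adjusted p = 0.311). Without the 24-week normal-diet oil pool, or without either Western diet oil pool, none of the 5 passed, and between 2 and 3 of them had an unadjusted p under 0.05. Mup20 passed in only 2 of the 8 fits with 1 library left out. Conversely, Mup7 passed without either normal-diet CCl4 pool (limma adjusted p = 0.0386 and 0.0380) and Mup14 without the 12-week normal-diet oil pool (0.0285).

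Mice given Western diet and CCl4 together had the lowest values of Mup7, Mup14 and Mup21 among the liver groups in mean level. Against normal diet with oil, all 5 genes were lower in both pools, as were 32% of tested genes, and all 5 passed, where 25.9% of tested genes did (limma, either direction). The median log2 change of the 5 was -4.88, beside -0.02 over all tested genes. The normal-diet oil pools are the same ones as in the 2 comparisons above, so these results are not independent of each other.

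Mup7 had 18.8 and 2.30 here, 199-fold below the oil pools in mean level, with a log2 change of -8.02 ± 1.22 (limma adjusted p = 0.0023). Mup21 had 9.33 and 9.74, which is 32.8-fold lower, with a log2 change of -4.90 ± 0.31 (limma adjusted p = 5.36e-05) and nearly the same difference at 12 weeks (-4.98) as at 24 weeks (-4.81). Mup14 had 35.1 and 12.6, a log2 change of -4.88 ± 0.76 (limma adjusted p = 0.00257). These 3 genes passed with any single library left out. Mup3 had 4477 and 1355, both inside or above the range with CCl4 alone, and a log2 change of -1.94 ± 0.40 (limma adjusted p = 0.00916). Mup20 had 1797 and 1995, a log2 change of -1.04 ± 0.20 (limma adjusted p = 0.00643). Mup3 and Mup20 did not pass without the 24-week normal-diet oil pool (limma adjusted p = 0.102 and 0.0731), and Mup3 also did not pass without the 24-week Western diet CCl4 pool (limma adjusted p = 0.0534).

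**Figure D4:**
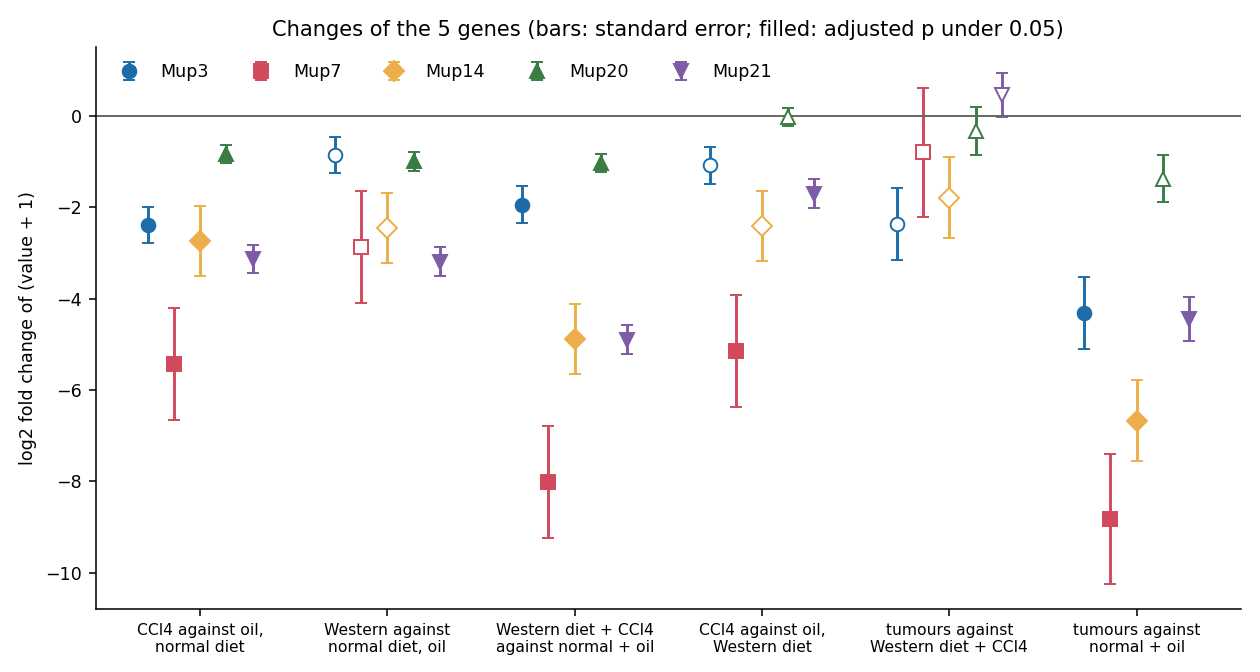
Log2 fold change of (value + 1) for each gene in 6 comparisons, with standard errors from limma; filled symbols passed an adjusted p of 0.05 and open ones did not. Mup7 reaches -8.02 under Western diet plus CCl4, while Mup20 stays between -1.38 and -0.03 throughout.

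Among pools on Western diet, Mup7 and Mup21 were lower with CCl4 than with oil. Here 6.82% of tested genes passed, against 2 of 5 Mup genes, both lower. Mup7 fell by 5.15 ± 1.22 on the log2 scale (limma adjusted p = 0.0432) and Mup21 fell by 1.70 ± 0.31 (limma adjusted p = 0.0197), and for both genes, as for 28.4% of tested genes, the CCl4 pools lay below the oil pools. Mup14 was the other of the 3 genes that did not overlap, with an estimate of -2.42 ± 0.76 (limma adjusted p = 0.0938) that passed in the 4 fits without a normal-diet pool. Mup20 had practically the same values in both groups, 1797 and 1995 against 1822 and 2065, with a difference of -0.03 ± 0.20. Mup3 overlapped, at -1.08 ± 0.40 (limma adjusted p = 0.143). Without either Western diet oil pool none of the 5 passed, with an unadjusted p under 0.05 in 3 of them, and without either Western diet CCl4 pool 1 did.

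Adding Western diet to CCl4 gave no call among the 5 genes, where 0.0474% of tested genes passed. An unadjusted p under 0.05 was found for 2 of them in limma, edgeR called 0 and DESeq2 called 1. Mup21 alone was lower with no overlap between the 2 groups, where 17.2% of tested genes were, at 59.6 and 20.2 against 9.33 and 9.74, with a log2 difference of -1.77 ± 0.31 (limma adjusted p = 0.129). Without the 24-week normal-diet CCl4 pool 2 of the 5 passed, and without the 24-week Western diet CCl4 pool 1 did. The difference of differences, which asks whether CCl4 acted alike on the 2 diets, passed for none of the 5, against 0.103% of tested genes. In limma 3 of the 5 had an unadjusted p under 0.05, and edgeR and DESeq2 called 0 each. Its estimates were above 0 for all 5, from 0.28 ± 1.73 for Mup7 to 1.43 ± 0.44 for Mup21, where a value above 0 means a joint change smaller than the sum of both log2 changes. For Mup7 the sign turned in edgeR (-0.52) and DESeq2 (-0.46), and for Mup7 and Mup14 also with some libraries left out.

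The 5 genes differed in how they changed from 12 to 24 weeks. In oil pools on normal diet Mup3 was nearly level from 12 to 24 weeks (0.964-fold), Mup20 was 1.36-fold higher at 24 weeks, and Mup14 was 2.16-fold higher, the largest ratio of the 5 in that group. In CCl4 pools Mup3 was 3.33-fold lower at 24 weeks on normal diet and 3.30-fold lower on Western diet, so the 2 diets gave nearly the same ratio. Mup7 was 154-fold lower at 24 weeks with CCl4 on normal diet, 4.54-fold lower on Western diet with oil and 8.17-fold lower on Western diet with CCl4. Mup14 was 10.4-fold, 3.07-fold and 2.79-fold lower in the same groups. Mup21 was 2.96-fold lower with CCl4 on normal diet but level on Western diet with CCl4 (1.04-fold). Mup20 moved by less than 1.4-fold in every liver group.

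Across all 8 pools no Mup gene passed for 24 against 12 weeks, and neither did any other gene in limma (0% of tested genes), while edgeR called 1 and DESeq2 90 genes in all. An unadjusted p under 0.05 was found for 4 of the 5 genes, and edgeR and DESeq2 called 0 of the 5. The estimates were -0.99 ± 0.28 for Mup3, -2.87 ± 0.87 for Mup7, -1.31 ± 0.54 for Mup14, 0.14 ± 0.14 for Mup20 and -0.55 ± 0.22 for Mup21. A term that lets the change over time differ between CCl4 and oil, chosen after seeing the data, passed for none of the 5 and for 0.0553% of tested genes. In that fit 3 of the 5 had an unadjusted p under 0.05, edgeR called 0 and DESeq2 called 1. Mup3 had -1.47 ± 0.23 (limma adjusted p = 0.139) and Mup7 -3.75 ± 1.25 (limma adjusted p = 0.348). With a normal-diet CCl4 pool left out 2 of the 5 passed, and with a Western diet CCl4 pool left out 4 did.

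In both tumours Mup20 was the most abundant of the 5 transcripts. Mup20 had 921 in tumour 1 and 2671 in tumour 2, below and above the Western diet CCl4 pools. Mup3 had 155 and 730, both below every liver pool. Mup7 was at 0.547 and 0.893, which is 14 and 23 reads, and Mup14 at 3.79 and 2.45. Mup21 had 7.08 and 16.7, on either side of the Western diet CCl4 pools.

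Against normal diet with oil, 4 of the 5 genes passed and were lower in the tumours, where 10.6% of tested genes passed. Both tumours lay below both oil pools for all 5, as they did for 26.4% of tested genes. Mup7 had a log2 change of -8.82 ± 1.41 (limma adjusted p = 0.0104), Mup14 of -6.67 ± 0.89 (limma adjusted p = 0.00591), Mup21 of -4.44 ± 0.48 (limma adjusted p = 0.00312) and Mup3 of -4.31 ± 0.79 (limma adjusted p = 0.0164). Mup20 had -1.38 ± 0.52 (limma adjusted p = 0.132), and it passed without tumour 2 (limma adjusted p = 0.000441) and in DESeq2 on recovered reads (adjusted p = 0.0384). Without the 24-week normal-diet oil pool none of the 5 passed, with an unadjusted p under 0.05 in 4 of them, and without that of 12 weeks Mup3 did not (limma adjusted p = 0.0525). Against the Western diet CCl4 pools none of the 5 passed, where 0.972% of tested genes did. In limma 1 gene, Mup3, had an unadjusted p under 0.05, edgeR called 0 and DESeq2 called 1. Mup3, Mup7 and Mup14 were lower with no overlap between the tumours and these pools, where 20.2% of tested genes were, with mean levels 6.59-fold, 14.6-fold and 7.64-fold lower in the tumours. After allowance for duration the log2 changes were -2.37 ± 0.79, -0.80 ± 1.41 and -1.79 ± 0.89. With tumour 2 left out 2 of the 5 passed.

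Other Mup rows were much lower, and 8 of the 15 (Mup1, Mup6, Mup8, Mup9, Mup11, Mup12, Mup13 and Mup15) passed the filter on low values. The other 7 did not exceed 1.10 in any library, and Mup19 was at 0 in all. Mup1 was the highest of them with oil on normal diet, at 159 and 328 with oil on normal diet, 63.3 and 2.70 with CCl4, 36.4 and 17.7 with Western diet, 3.19 and 0.718 with both, and 0.156 and 0.272 in the tumours. Mup12, the row nearest to Mup7, had 105 and 175, then 28.9 and 0.861, 16.0 and 5.67, 1.38 and 0.517, and 0.117 and 0.0388 in the same order. Like Mup7, both rows were highest with oil on normal diet and lowest in the tumours. Only 14.6% of the 50-base stretches of Mup12 and 38.4% of those of Mup1 occurred in no other Mup transcript. Their reads may therefore not be told from those of other copies, so their direction is no separate support. Mup11, Mup13 and Mup15 passed the filter on low values only with the help of the oil pools on normal diet.

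Other genes that are more active in male than in female mouse liver were described from a list of 18, all tested. With CCl4 on normal diet 16 fell and 0 rose (26% of all tested genes passed in either direction), with Western diet and oil 8 fell and 0 rose (1.99%), and with both 17 fell and 0 rose (25.9%), with a median log2 change of -2.16. In the tumours against normal diet with oil 14 fell and 0 rose (10.6%). With CCl4 on Western diet 7 fell and 1 rose (6.82%), the latter being Serpina12 (0.97 ± 0.16, limma adjusted p = 0.0146). Moxd1, which encodes a monooxygenase-like protein, had 14.4 and 30.4 with oil on normal diet and was at 0 in the 6 other liver pools, so it passed the filter on low values only through the group where it was high. Since the list was chosen with results of these data known, its counts support nothing. Under both exposures Hsd3b5, a steroid dehydrogenase of male liver, had a log2 change of -6.81 ± 0.76, Elovl3, a fatty acid elongase, of -5.75 ± 0.24, Slco1a1, an organic anion transporter, of -4.81 ± 0.61, and Susd4, a complement regulator, of -4.54 ± 0.38. Serpina12, which encodes the adipokine vaspin, did not pass there, at -0.25 ± 0.16.

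Of 20 genes that are more active in female liver, 9 passed the filter on low values. Cyp2a4, a steroid hydroxylase, had a log2 change of 5.13 ± 0.59 under both exposures, Cyp2b9, another cytochrome P450, of 3.03 ± 0.37, Ntrk2, a neurotrophin receptor, of 2.48 ± 0.28, and Fmo2, a flavin monooxygenase, of 1.74 ± 0.36. In all, 6 of the 9 rose and 2 fell under both exposures, beside 25.9% of all tested genes in either direction. With CCl4 on normal diet 6 rose and 2 fell (26%), and with Western diet and oil 2 rose and 3 fell (1.99%). With CCl4 on Western diet 3 rose and 0 fell (6.82%), and in tumours against unexposed liver 1 rose and 1 fell (10.6%). The 2 that fell under both exposures were Cyp2c40 (-1.58 ± 0.27) and Cyp2c69 (-1.28 ± 0.22), named after their values were seen. Both were under 1 in the 6 liver pools other than the oil pools on normal diet. A gene of this list that is low in the oil pools passed the filter only where it was high, and these 2 only through the oil pools on normal diet and, for Cyp2c40, tumour 2, so the counts support nothing.

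Of 14 listed genes of the growth hormone pathway 12 were tested. Under both exposures 3 fell and 1 rose, beside 25.9% of all tested genes in either direction, with a median log2 change of 0.01. Igfals, which encodes the subunit that stabilises circulating IGF1, fell by 1.22 ± 0.20, Bcl6, a repressor active in male liver, by 1.07 ± 0.21, and Ghr, the growth hormone receptor, by 0.63 ± 0.19, while Igfbp3, an IGF carrier, rose by 1.39 ± 0.24. Stat5b had -0.28 ± 0.14 and Socs2, a STAT5 target that dampens the receptor, 0.19 ± 0.43, and neither passed. With CCl4 on normal diet 4 of the 12 growth hormone genes fell and 1 rose (26%), with a median log2 change of -0.28. In tumours against unexposed liver 4 fell and 1 rose (10.6%), with a median of -1.10. With CCl4 on Western diet 2 fell and 0 rose (6.82%), with a median of 0.13. With Western diet and oil 0 of them passed in limma (1.99%), where the median was -0.09 and 2 lay below 0.05 before adjustment. Of 12 factors known to act on Mup genes, Cebpb rose under both exposures (0.62 ± 0.15) and the others did not pass, beside the same 25.9%. Among these others Zhx2, a zinc finger and homeobox factor, had -0.15 ± 0.14 and Hnf4a, a hepatocyte regulator, -0.27 ± 0.15. With CCl4 on normal diet Cebpb rose (0.55 ± 0.15) and Foxa2 fell (-0.59 ± 0.14), where 26% of all tested genes passed. With Western diet and oil (1.99%), CCl4 on Western diet (6.82%) and in tumours against unexposed liver (10.6%) 0 of the 12 passed. In each of these 3 comparisons 1 had an unadjusted p under 0.05 in limma.

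Secreted plasma proteins of the liver had a smaller median change than the Mup genes. Of 18 plasma protein genes 8 fell and 0 rose under both exposures, beside 25.9% of all tested genes in either direction. The median log2 change of the 18 was -0.59. The fibrinogen chains Fgg (-1.06 ± 0.19), Fga (-1.05 ± 0.20) and Fgb (-1.04 ± 0.19) and the apolipoprotein gene Apoa1 (-0.94 ± 0.22) moved most. With Western diet and oil none of the 18 passed in limma, where 1.99% of tested genes did, and 2 had an unadjusted p under 0.05. Albumin (Alb) had -0.70 ± 0.58 and did not pass. Of 10 tested relatives of the Mup genes in the lipocalin family, 4 fell and 2 rose under both exposures, beside the same 25.9% of all tested genes. Lcn2, an iron-scavenging acute-phase lipocalin, rose by 3.23 ± 0.26 and Orm3, an orosomucoid, by 1.85 ± 0.22. Apom, a lipoprotein lipocalin, fell by 1.19 ± 0.23. Obp2a, an odorant-binding protein gene, fell by 1.49 ± 0.31, but stood at only 1.11 and 2.74 with oil on normal diet and under 1 in the 6 other liver pools, so it passed the filter only through the group where it was high and tumour 1 (2.03).

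**Figure D5:**
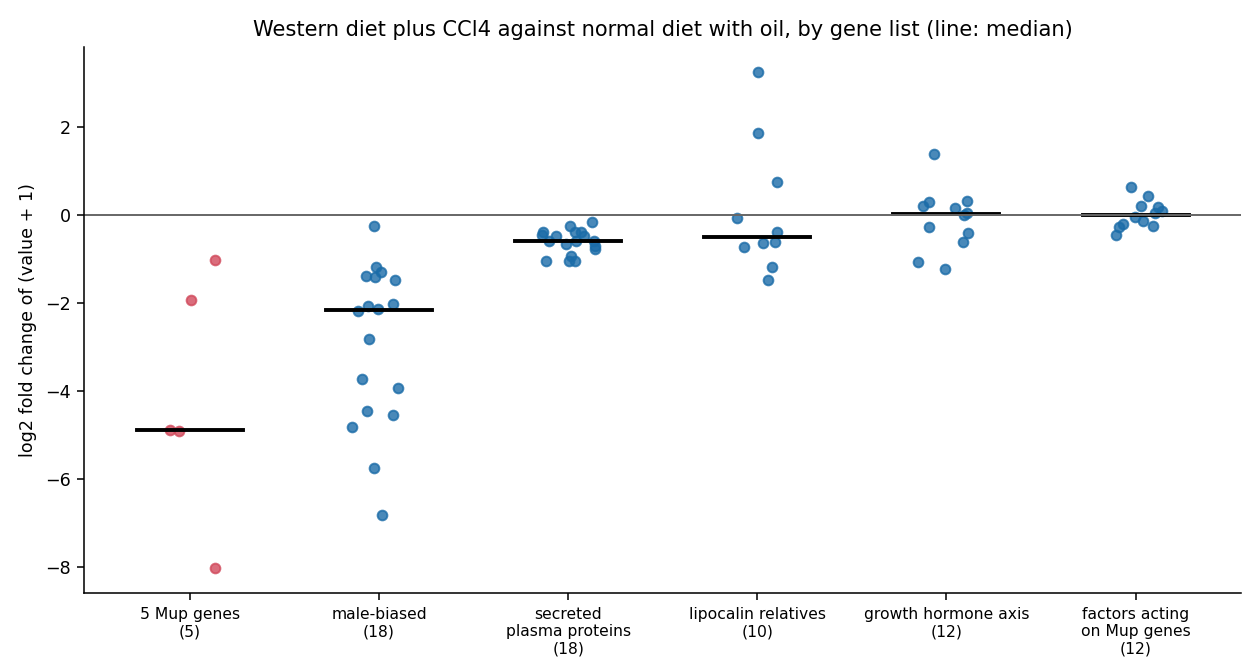
Log2 fold change of (value + 1) under Western diet plus CCl4 against normal diet with oil for the 5 Mup genes and the tested genes of 5 lists, 1 point per gene with the list median as a line. Medians are -4.88 for the Mup genes, -2.16 for the male-biased list and -0.59 for secreted plasma proteins.

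Markers of cell types were summed for the same groups, and not all of them differed between groups. The summed normalised count of the 5 hepatocyte markers was 116220 to 127010 with oil on normal diet, 67060 to 77949 with CCl4, 98690 to 115620 with Western diet, 63576 to 95810 with both, and 71262 to 213330 in the tumours. Albumin made up 86.2% to 95.5% of that sum. Without it the sum of the other 4 was 10530 to 12160, 8321 to 9587, 13407 to 14029, 8774 to 11689 and 5141 to 9543 in the same order. None of the 5 passed in a liver comparison with oil as control, where 1.99% to 26% of tested genes did. In limma an unadjusted p under 0.05 was found for 3 of the 5 with CCl4 on normal diet and 0 with Western diet and oil. It was found for 1 under both exposures and 1 with CCl4 on Western diet. Their median log2 changes were -0.61, 0.03, -0.27 and -0.46 in that order. In tumours against unexposed liver, where 10.6% of tested genes passed, Tat fell (-2.24 ± 0.38, limma adjusted p = 0.0135) while Cps1 had -1.33 ± 0.37 (0.0647). The sum of 8 macrophage markers was 189 to 256 with oil on normal diet, 445 to 634 with CCl4, 337 to 381 with Western diet, 565 to 825 with both and 304 to 308 in the tumours. The sum of 7 stellate cell and myofibroblast markers was 222 to 232, 548 to 801, 412 to 432, 715 to 1044 and 386 to 690 in the same order, and that of 5 bile duct markers 49.7 to 64.3, 155 to 357, 76.3 to 85.9, 137 to 577 and 392 to 801. Most of the bile duct sum was Spp1, at 75.0% to 96.5%, and without it the sum was 12.4 to 14.4, 18.5 to 31.7, 15.5 to 17.0, 16.6 to 52.8 and 28.2 to 35.6. In the tumours the duct keratins Krt19 (1.13 and 0.699) and Krt7 (0.782 and 0.194) did not exceed the higher of the oil pools on normal diet (2.17 and 2.15 for Krt19, 1.33 and 0.640 for Krt7), and the median log2 change of the 5 bile duct markers was -0.25 against unexposed and -1.80 against exposed liver. In the group order above, the sum of 5 endothelial markers was 125 to 144, 170 to 203, 163 to 174, 140 to 219 and 149 to 167. That of 6 T and B cell markers was 2.97 to 9.84, 5.05 to 5.17, 8.20 to 11.0, 7.61 to 8.30 and 4.70 to 5.36. That of 3 neutrophil markers was 3.68 to 4.25, 5.73 to 8.43, 4.02 to 7.97, 6.84 to 9.74 and 9.27 to 9.59. No marker of these lists was at 0 in any library. Of 3 erythroid markers only Alas2 was tested, at 180 to 215, 87.1 to 116, 169 to 197, 108 to 160 and 24.1 to 76.8. The part of all these markers in the Mup results was not tested.

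Across the 10 libraries, the log2 values of Mup14 and Mup7 had a Pearson correlation of 0.97, and those of Mup20 had one of 0.63 with Mup7 and 0.71 with Mup3. Among 6319 genes outside the family with at least median expression, the gene whose log2 values were most like the summed Mup value was Serpina3k, a serine protease inhibitor (r = 0.99). It had 10702 and 11993 with oil on normal diet, 4808 and 2180 with CCl4, 6780 and 6484 with Western diet, 4548 and 2275 with both, and 853 and 2354 in the tumours. The complement gene C9 followed (r = 0.99), then Synj2bp, Rbbp4 and Aspdh (r = 0.99, 0.99 and 0.98). For single members the closest were Slco1a1, Nudt7 and Adtrp for Mup7 (r from 0.97 to 0.98), Fkbp8, Slco1a1 and Xkr9 for Mup14 (0.98 to 0.99), Fam188a, Mccc2 and Iah1 for Mup3 (0.98), Rbm42, Mars and Commd7 for Mup21 (0.95 to 0.96) and Mmachc, Gle1 and Yipf6 for Mup20 (0.92 to 0.95). These correlations describe libraries that share groups and durations, and were picked as the highest of many.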

How the data were processed

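Total RNA (200 ng) of flash-frozen liver was selected for poly-A mRNA, per the labels' protocols. STAR and the build mm10 come from the submitters' processing notes, and the counter, annotation and scaling method were not given in sources used here. Values deposited by the authors are a normalised signal per gene and library. All values were whole numbers of reads, within 0.01 reads, times 1 constant per library, so whole reads were recovered. Intervals cover counting error only.

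Values were taken as log2(value + 1). Genes at 1 or more in at least 2 libraries were tested, which left 12648. Two-sided tests were run in R 4.3.3 with limma 3.58.1 (moderated statistics with a mean-variance trend), with 1 mean per group and a duration term, on the 8 liver pools (3 residual degrees of freedom) or, for tumours, on all 10 libraries (4), with Benjamini-Hochberg adjustment over tested genes and a threshold of 0.05. edgeR 4.0.16 and DESeq2 1.42.0 on recovered reads were alternatives, beside other pseudocounts, filters, scalings and library sets. The script was tested on simulated data. Replicate numbers stand for duration, so the duration term is the block.

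The members and lists were chosen with earlier results of these data known. All 5 members are named in every comparison; of each list up to 4 members are named, those with the largest change under Western diet plus CCl4 among genes that passed, and up to 2 that did not pass. Likeness was Pearson's r over log2 values of genes at or above median expression. Gene models are GENCODE on GRCm38 and promoters RefSeq on GRCm38.p6; protein sequences were not used here.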

Additional observations from a re-analysis of the deposited data

How the results depend on the processing

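The number of the 5 genes called depended on the settings, and so did the calls over all tested genes. For CCl4 on normal diet the lowest count over all alternatives was 47 genes, against 3285 in the main fit. Under both exposures it was 115 against 3278, and some alternatives gave more calls than the main fit. A loss of calls was thus not particular to the Mup genes. With no filter on low values 0 of the 5 were called in every comparison (an unadjusted p under 0.05 was found for 3 with CCl4 on normal diet, 2 with Western diet and oil, 5 under both, 1 for CCl4 on Western diet and 4 in tumours against unexposed liver). With all 10 libraries in 1 fit the counts were 1 for CCl4 on normal diet, 0 for Western diet with oil (2 unadjusted), 3 under both and 0 for CCl4 on Western diet (3 unadjusted). Without the duration term, that is with no replicate block, they were 3, 1, 5 and 0 (3 unadjusted) in that order. Quantile normalization gave 3 for CCl4 on normal diet and 1 for CCl4 on Western diet, and in the first of these moved the log2 change of Mup20 from -0.84 to -0.40 and that of Mup3 from -2.39 to -1.75, and eBayes without trend gave 1 for Western diet with oil and 1 for CCl4 on Western diet. For CCl4 on Western diet a filter at 10 and edgeR gave 1 each. DESeq2 gave 5 for tumours against unexposed liver, where limma gave 4, and 1 for Western diet added to CCl4, 1 for tumours against exposed liver and 1 for CCl4 by duration, where limma gave 0. The causes were not tested. No scaling moved the median of all genes by over 0.1.

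Leaving out 1 library at a time gave 1 to 5 calls for CCl4 on normal diet, 0 to 2 for Western diet with oil, 3 to 5 under both, 0 to 3 for CCl4 on Western diet, 0 to 2 for Western diet added to CCl4, 0 to 2 for tumours against exposed liver, 0 to 5 for tumours against unexposed liver and 0 to 4 for CCl4 by duration. The log2 change of the summed value then ran from -2.44 to -1.34, from -1.30 to -0.91, from -2.29 to -1.38, from -1.19 to -0.28, from -0.50 to 0.61, from -2.09 to -0.43 and from -3.92 to -2.27 in the first 7 of these, with main values of -1.89, -1.10, -1.84, -0.74, 0.05, -1.26 and -3.10. Western diet added to CCl4 turned to -0.40 without the 12-week Western diet CCl4 pool and to -0.50 without the 24-week normal-diet CCl4 pool.

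Of 955 recomputed changes of single genes 834 kept direction and side of the threshold, 75 lost and 30 gained a call, and 16 turned. None of the 16 was past the threshold in the main fit. Mup20 for CCl4 on Western diet turned to 0.29 under quantile normalization. For Western diet added to CCl4 with 1 library left out, Mup7 ran from -5.28 to 0.10, Mup20 from -0.44 to 0.054 and Mup3 from -0.044 to 0.94, each turning with a CCl4 pool left out. The interaction of Mup7 turned to -0.52 in edgeR and -0.46 in DESeq2. With 1 library left out it ran from -2.41 to 2.97, and that of Mup14 from -1.28 to 1.94. Against exposed liver Mup20 ran from -1.11 without tumour 2 to 0.43 without tumour 1, and Mup21 from -0.11 without tumour 2 to 1.02 without tumour 1. Mup21 for CCl4 by duration ran from -1.16 to 0.42. Depth limits Mup7 in the tumours, at 14 and 23 reads, and the copy to which reads of Mup7 and Mup14 belong.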

Other observations

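Mup9, a row named after its values were seen, did not follow the other rows. It had 9.81 and 20.3 with oil on normal diet (12 and 24 weeks), 25.4 and 0.594 with CCl4, 1.07 and 0.890 with Western diet, 0.230 and 94.2 with both, and 0.0391 and 15.3 in the tumours. The values of 94.2 and 15.3 rest on 3280 and 393 reads. Only 20.9% of the 50-base stretches of Mup9 occurred in no other Mup transcript, so its reads may not be told from those of other copies. No other Mup row among the 15 was at its highest in the 24-week Western diet CCl4 pool.

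Most of the nearest tested genes outside the cluster did not pass under Western diet plus CCl4 against normal diet with oil. Only 25.9% of all tested genes passed there, so this is no result about the locus. Below it, Snx30, a sorting nexin gene 52.1 kb away, had a log2 change of 0.02 ± 0.21 under Western diet plus CCl4 against normal diet with oil, and Inip, 155 kb away, one of 0.33 ± 0.18, neither past the threshold. E130308A19Rik fell by 0.68 ± 0.19 (limma adjusted p = 0.0303). Above it, Slc31a2, a copper transporter gene, had 0.07 ± 0.17 and Fkbp15 had 0.15 ± 0.12. Zfp37, a zinc finger gene 38.7 kb above the cluster, was at 8.33 and 8.31 in the tumours and at most 1.07 in the liver pools. Its log2 change was 2.82 ± 0.31 in tumours against unexposed liver (limma adjusted p = 0.00312). It passed the filter on low values only through the tumours, the group where it was high, so this call supports nothing. These neighbours were chosen after seeing the data.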
